A study of Mus musculus with 13 samples.

Results

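H3K4me3 of the 961C line, which was derived from an acute myeloid leukaemia (AML) of a NUP98-PHF23 (NP23) mouse, was examined where no H3K4me3 peak of 3 pre-T lymphoblast lines was listed. Peaks of the 4 H3K4me3 lists that shared at least 1 bp were merged into 25059 regions, and 4447 of these came from 961C alone. Of the 4306 on chromosomes 1 to 19, 2607 were under 500 bp and were set aside, as were 49 wider ones that held a peak of the NP23 fusion protein. The remaining 1650 regions, called AML-only here, are each 1 peak of 961C, and they make up 13.4% of the 12278 H3K4me3 peaks of 961C of this width on these chromosomes. They were chosen by presence and absence of H3K4me3 peaks, by width and by absence of NP23, so the values of those measures below are a description.

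The lines were grown without added cytokines, and each came from 1 mouse. Line 961C (NP23 AML, myeloblast) and lines 748T and 106A (NP23 pre-T LBL, lymphoblast) are on a C57BL/6 background and carry the fusion. The SCL-LMO1 line (lymphoblast), the control, came from a pre-T LBL on a C57BL/6 and C3H hybrid background. The sources used here do not say which promoter drives the fusion in the mice. Every line has 1 H3K4me3 and 1 H3K27me3 peak list, with no repeat of an antibody within a line, so no difference between lines could be tested, and lineage, mouse and library cannot be told apart. Intervals are exact Clopper-Pearson 95% intervals over regions and cover counting error only. Coordinates are of build mm9, and which genes lie in the regions was not analysed here.

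H3K4me3 is placed by the SET1 and MLL methyltransferase complexes and marks the promoters of transcribed genes. H3K27me3 is placed by Polycomb repressive complex PRC2 and marks silent developmental and lineage genes. The PHD finger that PHF23 gives to the fusion can bind H3K4me3. Myeloid and T lineage cells use different parts of their promoter repertoire, and a promoter open in one lineage may carry H3K27me3 in another.

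AML-only regions were narrower and lower than the H3K4me3 peaks that 961C shared with the pre-T lines. Their median width was 894 bp (quartiles 668 and 1326 bp, range 500 to 9177 bp), against 1562 bp (quartiles 1091 and 2144 bp) for the 9299 peaks of 961C that met a peak in all 3 pre-T lines. Under 1 kb lay 957 of the AML-only regions (58.0%) and 20.7% of the peaks met in all 3 lines. At 2 kb or wider the shares were 10.6% (175 regions) and 30.2%. The 541 peaks met in 1 pre-T line had a median of 1016 bp and the 739 met in 2 lines a median of 1094 bp, so the median was larger with each further line that shared the peak.

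The pileup was lower at AML-only regions than at peaks of the same width met in all 3 lines. Heights are maximum read pileups and were compared inside the 961C list. The median maximum was 22 reads (quartiles 15 and 34, range 6 to 130) at AML-only regions and 63 reads (quartiles 46 and 76) at peaks met in all 3 lines. Peaks met in 1 and 2 lines had medians of 27 and 33 reads. From 500 bp to 1 kb, AML-only regions had a median of 17 reads and peaks met in all 3 lines 36 reads. From 1 to 2 kb the medians were 29.5 and 63 reads, and from 2 to 4 kb they were 49 and 73 reads. In these classes, from the narrowest up, peaks met in 1 line had 20, 36 and 52 reads. Peaks met in 2 lines had 20, 41 and 60 reads, so the difference from partly shared peaks was smaller. At 4 kb or wider the difference shrank, with 73.5 reads at the 16 AML-only regions and 77 reads at 244 peaks met in all 3 lines, and the quartile ranges overlapped widely. At that width the 11 peaks met in 1 line were lower, at 62 reads, and the 14 met in 2 lines had 76.5 reads. Width and height ran together across the 1650 regions (Spearman's rho = 0.63, Pearson's r of the log2 values = 0.68), as they did across the 9299 shared peaks (0.57 and 0.60). Both measures come from 1 library, and regions are not replicates.

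**Figure D1:**
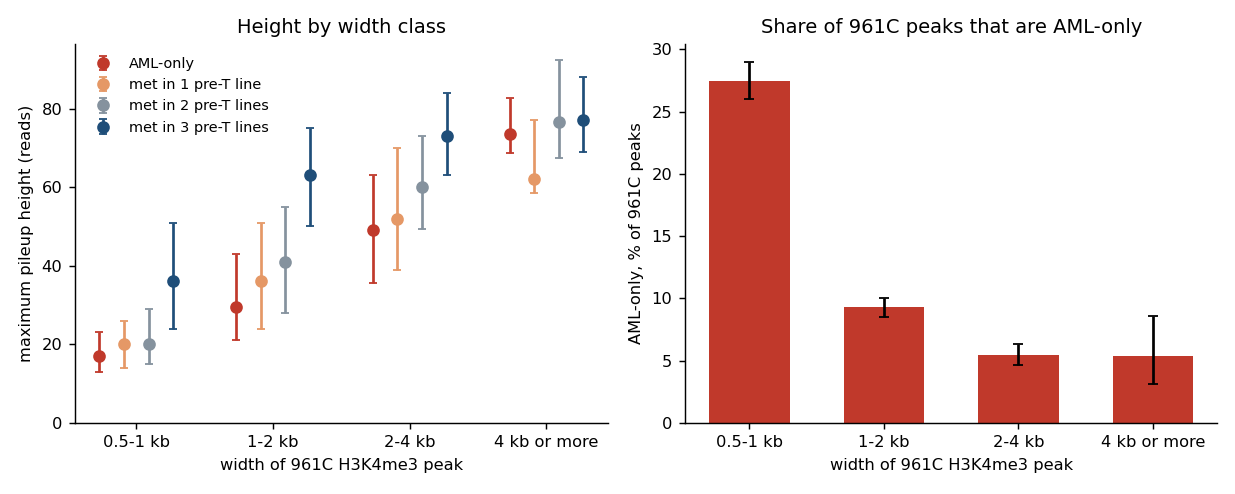
Left, maximum pileup height (reads) of 961C H3K4me3 peaks by width class, with points at the median and bars from the first to the third quartile, for AML-only regions and for peaks met in 1, 2 or 3 pre-T lines. Right, AML-only regions as a percentage of all 961C peaks of each width class with exact 95% intervals, which was 27.5% at 500 bp to 1 kb and 5.39% at 4 kb or wider.

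The share of 961C peaks that were AML-only was smaller in the wider classes. It was 27.5% (95% interval 25.98 to 28.98) of 3485 peaks from 500 bp to 1 kb, 9.27% (8.52 to 10.1) of 5587 peaks from 1 to 2 kb and 5.47% (4.67 to 6.35) of 2909 peaks from 2 to 4 kb. At 4 kb or wider it was 5.39% (3.11 to 8.60) of 297 peaks. Regions next to the width limit were alike in height: the 19 AML-only regions less than 10 bp above it had a median maximum of 13 reads, and the 29 regions of 961C alone up to 10 bp below it had 15 reads. A second, low track that the lists give beside the pileup, read here as a background track, exceeded a mean of 1 read at 53 AML-only regions (3.21%) and at 47 of the 9299 peaks met in all 3 lines (0.505%). Its median was 0.334 reads at AML-only regions and 0.285 reads at peaks met in all 3 lines, and its part in these results was not tested.

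The widest AML-only regions were broad, tall peaks of the kind that 961C mostly shared with other lines. The widest lay on chromosome 5 from 143576293 to 143585469 (9177 bp, maximum 71 reads), with the nearest pre-T H3K4me3 peak, in 748T, 19.4 kb away. The next lay on chromosome 18 from 55145203 to 55152490 (7288 bp, 61 reads), 690 kb from the nearest pre-T peak. The third, on chromosome 2 from 44963158 to 44968794 (5637 bp, 71 reads), stood 167 kb from any other H3K4me3 peak of 961C itself and 179 kb from the nearest pre-T peak.

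On chromosome 2 a pair of wide regions lay together. One ran from 148229801 to 148234642 (4842 bp, 88 reads) and the other from 148265172 to 148269872 (4701 bp, 81 reads), and the nearest pre-T H3K4me3 peaks were 263 and 228 kb away. The other 5 of the 10 widest were chromosome 5 at 139879429 to 139885041 (5613 bp) and 121568981 to 121574046 (5066 bp), chromosome 1 at 196764652 to 196769743 (5092 bp), chromosome 7 at 35902906 to 35907591 (4686 bp) and chromosome 10 at 111430171 to 111434721 (4551 bp). Maximum heights over the 10 widest ran from 61 to 102 reads.

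The 10 tallest AML-only regions reached 93 to 130 reads and were 822 to 4686 bp wide. A single one, chromosome 7 from 35902906 to 35907591 with 102 reads, was also among the 10 widest. The tallest, chromosome 15 from 36808507 to 36809683 (1177 bp, 130 reads), had a second-track mean of 3.99 reads, and chromosome 9 from 45089196 to 45090017 (822 bp, 98 reads) had 4.26 reads. The second track of the other 8 stayed at 0.188 to 0.706 reads.

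Those other 8 were chromosome 5 at 114246879 to 114250612 (112 reads) and 97347982 to 97352466 (102 reads), chromosome 7 at 142729161 to 142732694 (104 reads) and at the position given above, chromosome 11 at 79997072 to 79998860 (103 reads) and 114792319 to 114796221 (93 reads), chromosome 9 at 107188688 to 107192796 (96 reads) and chromosome 6 at 112894853 to 112897569 (93 reads). Among the 9299 peaks met in all 3 pre-T lines, 1 reached 130 reads or more.

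AML-only regions were spread over all 19 autosomes in proportion to the other 961C peaks, with small departures. They formed 17.5% (14.8 to 20.6) of 961C peaks on chromosome 10, the highest share, and 10.8% (8.97 to 12.8) on chromosome 11, the lowest. On these 2 of the 19 chromosomes the interval left out the overall 13.4%, and on the other 17 it took it in. The median second track of 961C peaks was 0.295 reads on chromosome 10 and 0.296 reads on chromosome 11, inside the 0.217 to 0.307 reads over all autosomes. Per 10 Mb of chromosome, with the furthest listed peak taken as the end, AML-only regions numbered from 4.52 on chromosome 18 to 11.4 on chromosome 19.

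**Figure D2:**
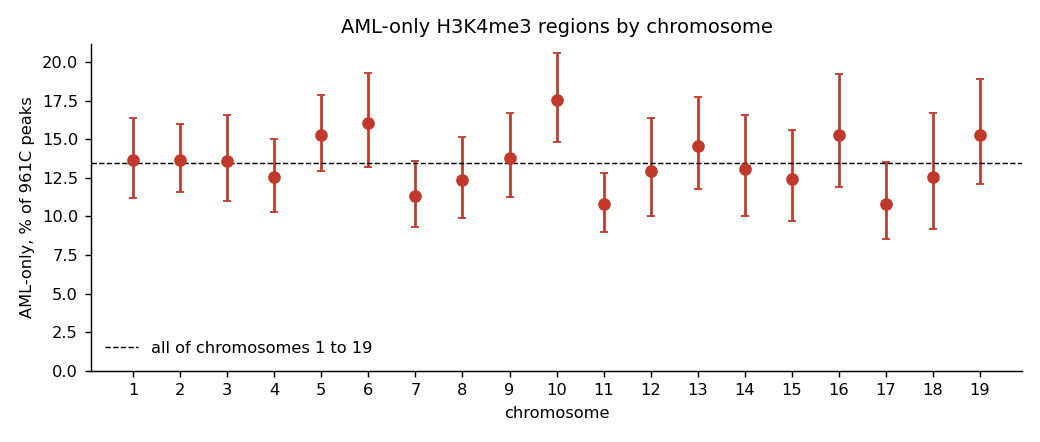
AML-only regions as a percentage of 961C H3K4me3 peaks of 500 bp or wider on each autosome, with exact 95% intervals. The dashed line is the value over all 19, 13.4%, and the intervals of chromosome 10 (17.5%) and chromosome 11 (10.8%) do not take it in.

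Along the chromosomes an AML-only region had another one nearby more often than a shared peak did. Another AML-only region lay within 50 kb of 591 of the 1650 regions (35.8%, 33.5 to 38.2), against 18.2% of all 961C peaks of this width and 1349 of the 9299 peaks met in all 3 lines (14.5%, 13.8 to 15.2). Peaks met in 1 pre-T line were in between, at 23.7%. The median distance to the nearest other AML-only region was 131 kb from an AML-only region and 292 kb from a peak met in all 3 lines. With regions within 50 kb joined, 254 groups of 2 or more held the 591 regions, 195 of them pairs, while 1059 regions stood alone. Another 961C peak of any width lay within 1 kb of 419 AML-only regions (25.4%, 23.3 to 27.6), against 33.4% of all 961C peaks and 35.2% (34.3 to 36.2) of those met in all 3 lines, so close neighbours of any kind were less frequent at AML-only regions. When peaks within 1 kb were merged first, 29.8% of 1542 AML-only regions had another within 50 kb, against 14.4% of the other 961C regions. Without that merging the share of the other 961C peaks was 15.5%.

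The 5 largest groups were stretches with many 961C peaks and few pre-T ones. On chromosome 17, 7 AML-only regions lay between 84473235 and 84560913 (87.7 kb). They were 582 to 2189 bp wide and 13 to 40 reads tall. That stretch held 12 H3K4me3 peaks of 961C, 1 of 748T and 0 of 106A, with 2 of the control. On chromosome 10, 6 regions of 12 to 29 reads lay between 40164628 and 40245784 (81.2 kb), with 10 peaks of 961C, 1 of 748T, 0 of 106A and 1 of the SCL-LMO1 line. The pre-T peaks in these 2 stretches were 242 to 761 bp wide.

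On chromosome 4, 5 regions between 46567869 and 46598498 (30.6 kb) reached 22 to 75 reads. That stretch held 14 H3K4me3 peaks of 961C and none of a pre-T line, and 4 H3K27me3 peaks of 748T. On chromosome 12, 5 regions of 18 to 26 reads lay between 88142043 and 88177590 (35.5 kb) around 1 H3K4me3 peak of each pre-T line. On chromosome 19, 5 regions of 9 to 67 reads lay between 41405804 and 41460006 (54.2 kb). They were the only H3K4me3 peaks of any line there, beside 3 H3K27me3 peaks of 748T and 1 of the SCL-LMO1 line. No H3K27me3 peak of 961C and no NP23 peak fell in any of the 5 groups. The rule had already removed regions with NP23, and the whole NP23 list holds 1629 peaks. Like stretches elsewhere were not counted, so these absences are a description.

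**Figure D3:**
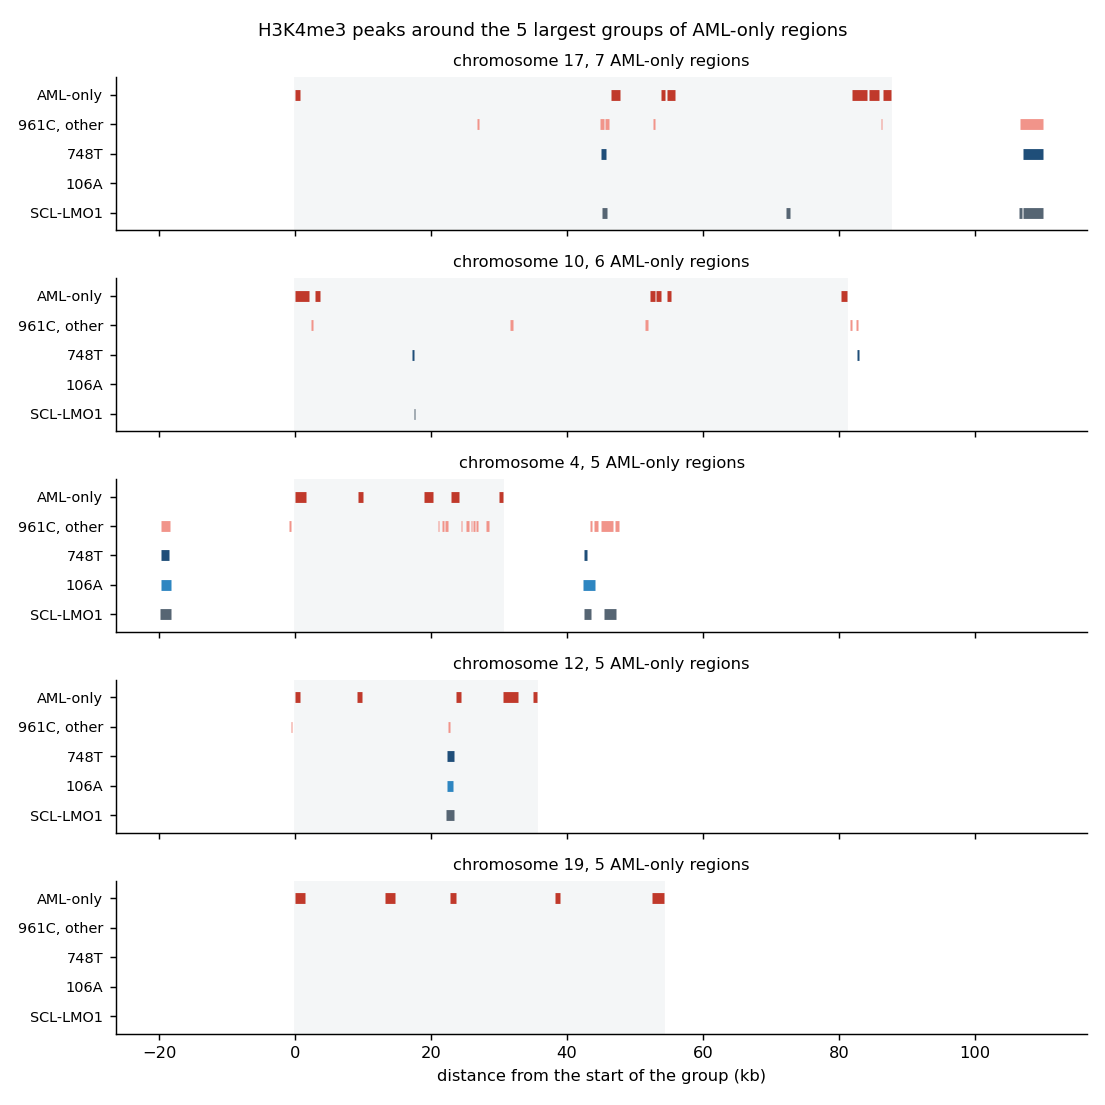
H3K4me3 peaks around the 5 largest groups of AML-only regions (shaded), as distance in kb from the start of each group, with 1 row each for AML-only regions, the other 961C peaks, 748T, 106A and the SCL-LMO1 line. The chromosome 4 and chromosome 19 groups hold no pre-T peak, and the chromosome 12 group surrounds 1 peak of each pre-T line.

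In bins of 1 Mb, 900 of 2481 held an AML-only region and 32 held 5 or more. The fullest was chromosome 4 from 46000001 to 47000000, where 9 of 20 peaks of 961C were AML-only. By share, chromosome 14 from 77000001 to 78000000 stood out among bins with 6 or more, with 6 of 7 peaks AML-only, and it was singled out after its value was seen. On chromosome 9 from 40000001 to 41000000 it was 8 of 12, and on chromosome 13 from 37000001 to 38000000 it was 8 of 14.

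Most AML-only regions were more than 5 kb from any H3K4me3 peak of the pre-T lines. The nearest pre-T peak was a median of 23.4 kb away (quartiles 7.15 and 66.0 kb). It lay within 1 kb for 97 regions (5.88%), within 5 kb for 336 (20.4%, 18.4 to 22.4) and beyond 100 kb for 293 (17.8%). Within 20 kb of a pre-T peak lay 45.5% of the regions. Line by line the median distance was 30.8 kb to 748T, 36.2 kb to 106A and 30.2 kb to the SCL-LMO1 line. For scale, the nearest other H3K4me3 peak of 961C was a median of 10.0 kb away, and within 5 kb for 40.2% of the regions. For 259 of the 336 regions with a pre-T peak within 5 kb (77.1%), that nearest peak was met by another 961C peak. Those regions flanked H3K4me3 that 961C shared with a pre-T line. The share of all pre-T H3K4me3 peaks met by 961C was not counted, so the 77.1% is a description.

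Regions near pre-T H3K4me3 were the lower ones. The median maximum was 17 reads within 1 kb, 18 reads at 1 to 5 kb, 22 reads at 5 to 20 kb and at 20 to 100 kb, and 25 reads beyond 100 kb. The share of 2 kb or wider was 6.19% within 1 kb and 15.4% beyond 100 kb. Of the 393 tallest AML-only regions (35 to 130 reads), 13.5% had a pre-T peak within 5 kb, against 31.8% of the 425 lowest (6 to 15 reads).

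Whether the pre-T lines carry H3K27me3 at these regions was read from lists that did not enter their choice. The classes compared are, however, set by H3K4me3 of the same pre-T lines, and the part of this in the H3K27me3 shares was not tested. H3K27me3 of 748T overlapped 26 of the 1650 AML-only regions (1.58%, 1.03 to 2.30), against 0.619% of all 12278 peaks and 27 of the 9299 peaks met in all 3 lines (0.290%, 0.191 to 0.422). H3K27me3 of 106A overlapped 13 AML-only regions (0.788%, 0.420 to 1.34), against 0.334% of all peaks and 0.108% (0.0516 to 0.198) of those met in all 3 lines. H3K27me3 of the SCL-LMO1 line overlapped 11 (0.667%, 0.333 to 1.19), against 0.122% of all peaks and 1 of 9299 (0.0108%). In each pre-T line the interval of the AML-only regions lay above that of the peaks met in all 3 lines. In all, 46 AML-only regions (2.79%, 2.05 to 3.70) met H3K27me3 of at least 1 pre-T line, against 0.986% of all peaks and 0.376% (0.262 to 0.523) of those met in all 3 lines, and 1604 met none.

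The overlap was not particular to AML-only regions. Peaks of 961C met in 1 pre-T line overlapped pre-T H3K27me3 at 3.14% (1.84 to 4.98) and those met in 2 lines at 2.98% (1.87 to 4.47), values whose intervals take in that of the AML-only regions. Peaks with H3K4me3 in all 3 pre-T lines were the class that differed. Of the autosomal H3K27me3 peaks, 0.335% for 748T, 0.313% for 106A and 0.247% for the SCL-LMO1 line fell on an AML-only region. For 961C it was 0.141%. AML-only regions cover just 1.88 Mb in all, so these small shares do not show that H3K27me3 was scarce there.

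Within 5 kb, AML-only regions had pre-T H3K27me3 more often than peaks met in all 3 lines, but not more often than peaks met in 1 or 2 lines. H3K27me3 of 748T lay within 5 kb of 124 AML-only regions (7.52%, 6.29 to 8.89), against 5.78% of all peaks and 4.71% of those met in all 3 lines. For 106A it was 63 regions (3.82%, 2.95 to 4.86), against 1.89% and 1.20%. For the SCL-LMO1 line it was 54 regions (3.27%, 2.47 to 4.25), against 1.02% and 0.387%. H3K27me3 of any pre-T line lay within 5 kb of 206 AML-only regions (12.5%, 10.9 to 14.2), against 7.63% and 5.76%. Peaks met in 1 line gave 15.2% (12.2 to 18.5) and those met in 2 lines 14.9% (12.4 to 17.7), intervals that overlap that of the AML-only regions. For 748T alone the AML-only value was the lower one, against 10.9% (8.41 to 13.8) of peaks met in 1 line and 11.8% (9.54 to 14.3) of peaks met in 2 lines, and the second of these intervals lies above that of the AML-only regions. For 106A peaks met in 1 and 2 lines gave 4.99% and 3.79%, and for the SCL-LMO1 line 2.03% and 2.98%, all with intervals that overlap those of the AML-only regions.

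H3K27me3 of 961C itself lay within 5 kb of 64 AML-only regions (3.88%, 2.9997 to 4.93), fewer than the 5.97% of all peaks, the 5.67% (5.21 to 6.16) of those met in all 3 lines and the 9.98% and 10.96% of those met in 1 and 2 lines. By direct overlap the 961C list gave 23 AML-only regions (1.39%, 0.886 to 2.08), against 3.51% (2.13 to 5.43) of peaks met in 1 line, 2.57% (1.55 to 3.99) of those met in 2 lines and 0.645% (0.493 to 0.830) of those met in all 3. Within 1 kb it was 2.42% (1.74 to 3.29), against 6.65% (4.70 to 9.09), 6.36% (4.71 to 8.37) and 1.71% (1.46 to 1.99). The AML-only values were thus below those of peaks met in 1 or 2 lines at each of these distances. By direct overlap, though, the intervals of AML-only regions and of peaks met in 2 lines overlap. AML-only regions were above the peaks met in all 3 lines by overlap and below them at 5 kb and at 20 kb. At 20 kb the values were 11.2% (9.67 to 12.8) and 18.7% (17.9 to 19.5). Within 1 kb the intervals of these classes overlap. The 961C H3K27me3 list, with 19469 peaks, is the longest of the 4, and the pre-T lists hold 8412 (748T), 5600 (106A) and 4875 peaks (SCL-LMO1 line).

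**Figure D4:**
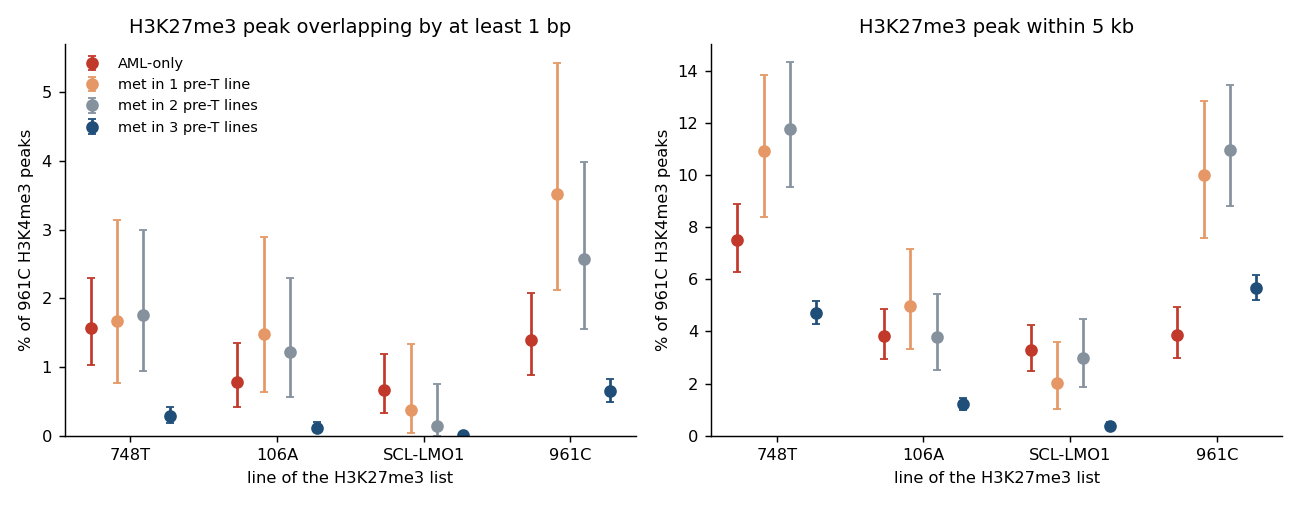
Percentage of 961C H3K4me3 peaks of 500 bp or wider that overlapped an H3K27me3 peak (left) or had one within 5 kb (right), by the line of the H3K27me3 list, for AML-only regions and peaks met in 1, 2 or 3 pre-T lines, with exact 95% intervals. For the pre-T lists the AML-only regions sit above the peaks met in all 3 lines, and for 961C within 5 kb they are the lowest class at 3.88%.

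Among AML-only regions, pre-T H3K27me3 was most frequent at those from 2 to 4 kb. Of the 159 regions from 2 to 4 kb, 22 overlapped H3K27me3 of a pre-T line (13.8%, 8.88 to 20.2), against 11 of 2566 peaks of that width met in all 3 lines (0.429%, 0.214 to 0.766). Peaks of that width met in 1 line gave 8.22% (3.08 to 17.0) and those met in 2 lines 6.60% (2.70 to 13.1). Both intervals overlap that of the AML-only regions. Within 5 kb, AML-only regions of that width gave 21.4%, against 21.9% and 16.0% of peaks met in 1 and 2 lines. Among AML-only regions the overlap share was 16 of 957 (1.67%, 0.959 to 2.70) from 500 bp to 1 kb and 7 of 518 (1.35%, 0.545 to 2.76) from 1 to 2 kb. From 500 bp to 1 kb, peaks met in 1 and 2 lines gave 1.54% and 0.923%. From 1 to 2 kb they were above the AML-only value, at 3.55% (1.44 to 7.18) and 3.74% (1.88 to 6.60). At 4 kb or wider the AML-only share was 1 of 16 (6.25%, 0.158 to 30.2). The peaks met in all 3 lines had 0.520%, 0.241%, 0.429% and 1.23% from the narrowest to the widest class. Width moves with the overlap among AML-only regions, and its part in the result was not tested. All 3 lists took part: 12 of the regions from 2 to 4 kb met H3K27me3 of 748T, 7 of 106A and 6 of the SCL-LMO1 line, and 1 met that of 961C.

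**Figure D5:**
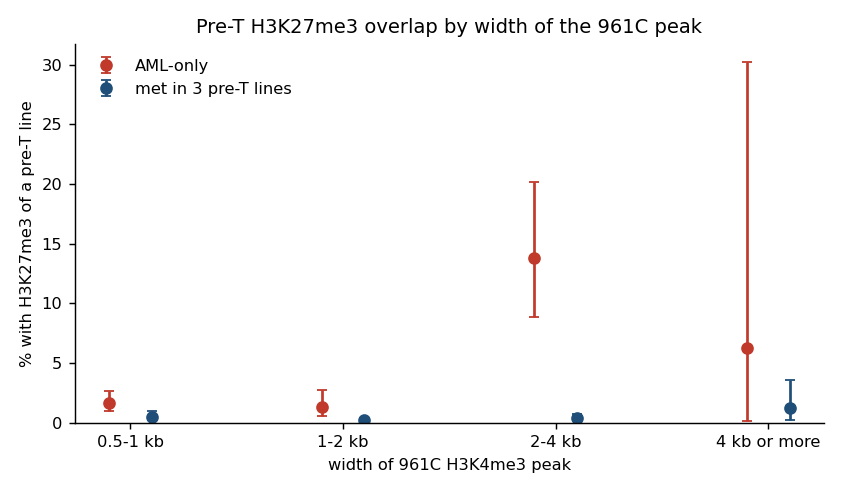
Percentage of AML-only regions and of 961C peaks met in all 3 pre-T lines that overlapped H3K27me3 of at least 1 pre-T line, by width of the 961C peak, with exact 95% intervals. The AML-only value at 2 to 4 kb is 13.8%, against 0.429% of the shared peaks, and the interval at 4 kb or wider (16 regions) is too broad to place it. Peaks met in 1 and 2 lines are not drawn. They gave 8.22% and 6.60% at 2 to 4 kb, and 3.55% and 3.74% at 1 to 2 kb, against 1.35% of AML-only regions.

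The 46 regions with pre-T H3K27me3 had a median width of 1951.5 bp, against 890 bp for the 1604 without it, and a median maximum of 32 reads, against 21. By height, 21 of the 393 tallest AML-only regions (5.34%) and 7 of the 425 lowest (1.65%) had it. The 46 regions lay on 14 of the 19 chromosomes, with 8 on chromosome 11 and 7 on chromosome 2. These were 7.02% of 114 and 5.26% of 133 AML-only regions, and chromosomes 16 and 15 gave 6.56% and 6.35%. Of the 46, 42 met H3K27me3 of 1 pre-T line, 4 met it in 2 lines and none in all 3. A single one also met H3K27me3 of 961C. H3K27me3 peaks usually covered a small part of the region, with a median of 13.0% of the bases for 748T, 9.58% for 106A and 21.0% for the SCL-LMO1 line. In the same order, 8 of 26, 3 of 13 and 2 of 11 regions were covered by 50% or more. The H3K27me3 peaks there had median widths of 278.5, 235 and 332.5 bp, against 204, 219 and 214 bp over the rest of each list. Their median maximum heights were 14, 11 and 13 reads, against 12, 10 and 12 reads over the rest of each list.

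Of the 4 regions with H3K27me3 in 2 pre-T lines, the widest and tallest was chromosome 16 from 95677416 to 95681255 (3840 bp, 66 reads). There 2 H3K27me3 peaks of the SCL-LMO1 line covered 58.1% and reached 21 reads, and 1 of 106A covered 5.78%. A second AML-only region 15.55 kb before it, from 95661179 to 95661866, was 98.3% covered by H3K27me3 of the SCL-LMO1 line. The most covered of the 4, and the narrowest, was chromosome 11 from 83275936 to 83276511 (576 bp, 17 reads), where H3K27me3 of 748T covered 72.7% and that of 106A 72.2%. On chromosome 10 from 59681355 to 59683399 (2045 bp, 38 reads), 748T covered 12.6% and the SCL-LMO1 line 21.0%.

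The remaining one, chromosome 15 from 102848546 to 102851212 (2667 bp, 44 reads), had 1 peak each in 106A (3.30% covered) and the SCL-LMO1 line (3.56%). The AML-only region 71.9 kb before it, from 102775834 to 102776600 (767 bp, 13 reads), was 35.2% covered by 2 H3K27me3 peaks of 106A, and a peak of the SCL-LMO1 line lay 92 bp away. Among the 10 widest AML-only regions, 1 met pre-T H3K27me3: chromosome 2 from 44963158 to 44968794, where 3 peaks of 106A covered 9.58%. Among the 10 tallest, 2 did: chromosome 7 from 142729161 to 142732694 and chromosome 11 from 79997072 to 79998860, each with 1 peak of 748T. None of the 10 widest or 10 tallest met H3K27me3 of 961C.

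The choice of line was turned round for comparison, with regions of 500 bp or wider found in 1 list alone and no NP23 rule, which leaves 1699 regions for 961C. A pre-T region also had to be absent from the other pre-T lists, while 961C is the only AML line. The numbers of regions are therefore not like for like. The pre-T lists gave fewer: 579 for 748T, 355 for 106A and 865 for the SCL-LMO1 line. Their median maxima, at 31, 33 and 27 reads, were below the 103, 120 and 106 reads over all peaks of 500 bp or wider of each list, as 22 reads in 961C was below 56. H3K27me3 of 961C overlapped 118 of the 579 regions found in 748T alone (20.4%, 17.2 to 23.9), against 4.86% of all 748T peaks of that width. For 106A alone it was 9.86% (6.96 to 13.4), against 4.11% of all 106A peaks, and for the SCL-LMO1 line alone 4.86% (3.52 to 6.51), against 2.97%. In the other direction, regions of 961C alone met H3K27me3 of 748T at 1.59%, that of 106A at 0.824% and that of the SCL-LMO1 line at 0.647%, against 0.619%, 0.334% and 0.122% of all 961C peaks. The H3K27me3 list of 961C is longer by 2.31 to 3.99 times, so the 2 directions are set side by side and not compared.

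Pre-T H3K27me3 also fell on regions found in 1 pre-T line alone. The regions of 748T alone met H3K27me3 of 748T itself at 3.97% (2.53 to 5.90) and of 106A at 2.07% (1.08 to 3.59), and that of the SCL-LMO1 line at 0.345% (0.0419 to 1.24). Over all 748T peaks of 500 bp or wider the shares were 0.756%, 0.378% and 0.0322%. The regions of 106A alone met H3K27me3 of 748T at 3.10% (1.56 to 5.48), of 106A at 0.282% and of the SCL-LMO1 line at 0 of 355 (upper bound of the interval 1.03%). Over all 106A peaks of 500 bp or wider they were 0.817%, 0.153% and 0.0341%. For the SCL-LMO1 line alone the values were 1.27% for 748T, 0.231% for 106A and 0 of 865 for its own list (upper bound 0.426%). Over all SCL-LMO1 peaks of 500 bp or wider they were 0.424%, 0.180% and 0 of 12746. The 106A value was thus near the share over all peaks, and the absence for its own list was not particular to these regions. Set beside the 1.59% and 0.824% of regions of 961C alone, the interval of 748T alone lay above for H3K27me3 of 748T and overlapped for that of 106A.

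The absence of a region depends on every list. Leaving out 748T gave 1932 AML-only regions, and leaving out 106A gave 1721. Of the 533 NP23-free 961C peaks met in a single pre-T line, 282 were met in 748T alone, 71 in 106A alone and 180 in the SCL-LMO1 line alone. These had medians of 30.5, 24 and 24 reads, against the 22 reads of the AML-only regions.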

How the data were processed

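The data are 9 peak lists deposited by the authors: H3K4me3 and H3K27me3 of each of the 4 lines, and V5-tagged NP23 of 961C. Input samples (4) stayed out. CASAVA 1.9, BWA 0.5.9-r26 and build mm9 are named, per the submitters' processing notes, and the sources used here name no peak caller. A deposited row holds start, end and a text field with mean and maximum pileup of the sample, then of a second track whose meaning was read from its low values alone (5 of 109165 rows lack it). Pileup maxima are whole numbers without scaling and no read totals are given. Depth is therefore unknown, and precision rests on how many peaks are listed and how tall they are.

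Overlap meant at least 1 bp, and distances ran from edge to edge. AML-only regions were compared with the other 961C peaks of 500 bp or wider on chromosomes 1 to 19. No test was run, since each line has 1 library per mark. The regions, width classes and named groups were chosen with earlier results of these data known. Named were the 10 widest, the 10 tallest, the regions with H3K27me3 in 2 pre-T lines and, these being under 5, the one nearest to it, and the 5 largest groups. Gene lists and markers stayed unused, since the available gene table (GRCm38.p6) is of another build. Alternatives changed merging (1 kb), width limit, height, NP23 removal, distances and the pre-T lines. Python 3.11.15, numpy 2.4.6, pandas 2.3.3 and scipy 1.17.1 were used. Overlap and distance steps were tested on simulated data.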

Additional observations from a re-analysis of the deposited data

How the results depend on the processing

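Shares, medians and counts of AML-only regions followed the limits set on them. The direction of the pre-T H3K27me3 comparison with the other 961C peaks did not change. Of 76 pre-T ratios of AML-only regions to those peaks under the alternatives, 76 were above 1 (1.08 to 51.96). They were 3.35 to 13.7 for overlap with any line and 1.33 to 4.10 within the distance. At the main setting 9299 of those 10628 peaks were met in all 3 lines. Peaks met in 1 and 2 lines gave 3.14% and 2.98% by overlap with any line, against 2.79% of AML-only regions. Within 5 kb they gave 15.2% and 14.9%, against 12.5%. The lowest ratio set 17.2% (15.4 to 19.1) within 20 kb of 748T H3K27me3 against 16.0% (15.3 to 16.7), and these intervals overlap. The ratio for H3K27me3 of 961C within 5 kb, 0.616, turned to 1.04 within 1 kb. A width limit of 1000 bp gave 693 regions of median 1465 bp and 33 reads, with 22.1% near another, 16.3% near pre-T H3K4me3 and 4.33% overlapping pre-T H3K27me3. A limit of 2000 bp gave 175 regions of 2545 bp and 51 reads, with 6.86%, 11.4% and 13.1%, and 20.0% with pre-T H3K27me3 within 5 kb. The taller 50% of 961C peaks gave 340 regions of 1733 bp and 51 reads, with 9.71%, 12.6% and 5.88%, and 18.5% within 5 kb. Merging within 1 kb gave a median of 1007.5 bp, 29.8% near another and 13.9% near pre-T H3K4me3. Joining distances of 20 and 100 kb gave 24.2% and 46.6%, against 7.37% and 25.6% of the other 961C peaks. Under the limits of 1000 and 2000 bp and the taller 50%, 7.21%, 1.25% and 3.32% of the other peaks were near an AML-only region. The ratios of the AML-only share to that share were 3.06, 5.47 and 2.93, against 2.31 at the main setting. Distances of 1 and 20 kb gave 5.39% and 27.9% for H3K27me3, and 5.88% and 45.5% for H3K4me3. The taller 50% of H3K27me3 peaks gave 9.45% within 5 kb. Leaving out 748T or 106A, H3K27me3 of the lines left overlapped 1.60% and 2.09% of regions, lay within 5 kb of 6.83% and 10.2%, and the median maximum was 23 and 22 reads. The cause of these shifts was not tested. No paired analysis was run, since each line has 1 library per mark and no result comes from a test.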
